A study of Mus musculus with 1753 samples.

Results

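Cluster 1 is a class of mouse skeletal muscle fibroblasts that the submitters assigned to the endomysium, the stroma between single muscle fibres. They anticipated that their endomysial clusters hold fibro-adipogenic progenitors and perivascular fibroblasts as well, and left this to further work. Where the cells of cluster 1 lie in the tissue was not measured here. Members of cluster 1 were the cells whose label gives cluster 1: 161 of 1566 fibroblasts and of 1753 single cells in all. The cells came from skeletal muscle of male mice of 10 to 20 weeks and were sequenced singly, from end to end of each transcript, with Smart-seq2. The submitters had sorted the cells into 10 clusters by their expression, of which clusters 1, 3, 5, 6 and 8 were endomysial fibroblasts, 2 and 9 perimysial (around fibre bundles), 4 paramysial (at the fringe of the perimysium), 10 a fibroblast class with no layer of its own and 7 mural cells.

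The mice carried 5 strain labels, and no cell was treated. C57BL6 is the wild-type inbred strain. PdgfrbGFP mice carry a green reporter transgene for Pdgfrb, the receptor of PDGF-B on perivascular cells. The label PdgfraGFP - PdgfrbGFP pool stands for cells of Pdgfra reporter mice, whose nuclei are green where the PDGF-A receptor gene is active, mixed with cells of PdgfrbGFP mice. Acta2GFP marks smooth muscle actin and Cspg4dsRED marks NG2, both mural cell genes. Wild-type cells were sorted with antibodies against PDGFRα or PDGFRβ and the reporter strains by their reporter, always without CD31, so the gate differed between strains. The labels name no animal, and whether PdgfrbGFP and the pool shared a mouse is not known. Counts were therefore summed over the cells of a cluster within a strain label, and the strain label served as the replicate and as the block. Cluster 1 gave 4 such sums, from 6 cells of Acta2GFP, 31 of C57BL6, 53 of the pool and 70 of PdgfrbGFP. The single cluster 1 cell of Cspg4dsRED entered no fit. P-values and errors hence measure the spread between strain labels, which is in part a spread between plates and gates.

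Fibroblasts of the endomysium lay down the thin matrix sheath of the muscle fibre and include the fibro-adipogenic progenitors that answer to injury. In many mouse tissues, fibroblasts with Dpp4, a membrane peptidase, and Pi16, a peptidase inhibitor, form a class often described as an early or universal fibroblast, found in the outer coat of vessels and in fascia. Another common class makes basement membrane collagens such as Col15a1 and sits within the tissue. Genes of both classes were read as 2 lists below.

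All 161 cells carried fibroblast transcripts. Ly6a (Sca-1) and Cd34, surface proteins of muscle fibroblasts, passed 100 counts per 500000 in 100% of cluster 1 cells. Both also belong to the list of Dpp4 and Pi16 genes. Of 10 pan-fibroblast markers read, these 2 alone were called higher than in the other fibroblasts, and 5 were called lower (Fbln1, Lum, Col1a1, Col1a2 and Serpinf1). Depth ran from 55428 to 1050531 counts per cluster 1 cell, with a median of 334153 counts and 4810 genes, against 265093 counts and 4438 genes in the 1405 other fibroblasts. The mitochondrial share of counts had a median of 1.19% in cluster 1 and 1.30% in the other fibroblasts. Summed counts of cluster 1 were 1439482 for Acta2GFP, 14289795 for C57BL6, 19743122 for the pool and 18402819 for PdgfrbGFP. In Acta2GFP 3 counts are thus worth 2.08 CPM (counts per 1000000 of the summed library), a floor that lies above the level of many genes named below.

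The clusters had been built from these same counts. A difference between cluster 1 and the rest therefore describes the clustering, and the calls below (edgeR quasi-likelihood test, Benjamini-Hochberg adjusted p under 0.05 over all genes tested) are a description and no independent evidence. Of 15052 genes tested against the other fibroblast clusters, 675 (4.48%) were called, 229 higher (1.52%) and 446 lower (2.96%) in cluster 1. Over all genes the fold change had a median of -0.28 on the log2 scale, which became 0.02 when equal numbers of cells were summed. The 4 strains did not weigh alike: 362 genes were called without Acta2GFP, 205 without C57BL6, 152 without the pool and 149 without PdgfrbGFP.

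A set of 6 genes was read as markers of the cluster. These genes were chosen with earlier results of these data known. Promoters were found for Sbsn, Dact2, Duoxa1 and Itgb7 among them. Those of Sbsn, Dact2 and Duoxa1 are shown with that of Duox1, which lies beside Duoxa1, since these 4 genes recur in the results. Each line gives 300 bases, from 250 before to 50 after the start of the gene in RefSeq (GRCm38.p6), read from 5′ to 3′ on the gene's own strand, with the GC box GGGCGG in capitals on whichever strand it stood. They lie at chr7:30751221-30751520 (Sbsn, plus strand), chr17:14203782-14204081 (Dact2, minus strand), chr2:122313681-122313980 (Duoxa1, minus strand) and chr2:122315422-122315721 (Duox1, plus strand).
Sbsn: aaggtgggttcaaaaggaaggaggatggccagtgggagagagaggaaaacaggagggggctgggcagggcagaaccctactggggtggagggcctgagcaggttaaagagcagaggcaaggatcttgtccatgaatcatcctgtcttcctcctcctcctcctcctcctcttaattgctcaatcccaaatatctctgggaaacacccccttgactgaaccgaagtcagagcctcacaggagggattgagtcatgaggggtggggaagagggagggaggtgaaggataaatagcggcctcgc
Dact2: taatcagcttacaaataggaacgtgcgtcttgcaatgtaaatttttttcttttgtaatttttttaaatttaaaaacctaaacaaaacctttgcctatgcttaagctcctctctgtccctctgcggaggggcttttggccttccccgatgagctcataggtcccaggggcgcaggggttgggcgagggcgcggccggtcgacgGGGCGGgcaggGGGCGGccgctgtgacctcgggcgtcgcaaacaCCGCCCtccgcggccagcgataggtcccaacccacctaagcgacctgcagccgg
Duoxa1: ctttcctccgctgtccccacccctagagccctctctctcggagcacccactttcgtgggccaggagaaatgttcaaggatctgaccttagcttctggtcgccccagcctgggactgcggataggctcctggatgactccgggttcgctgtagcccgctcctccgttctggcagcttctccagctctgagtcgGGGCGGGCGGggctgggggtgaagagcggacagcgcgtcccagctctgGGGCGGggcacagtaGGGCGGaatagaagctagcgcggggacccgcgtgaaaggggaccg
Duox1: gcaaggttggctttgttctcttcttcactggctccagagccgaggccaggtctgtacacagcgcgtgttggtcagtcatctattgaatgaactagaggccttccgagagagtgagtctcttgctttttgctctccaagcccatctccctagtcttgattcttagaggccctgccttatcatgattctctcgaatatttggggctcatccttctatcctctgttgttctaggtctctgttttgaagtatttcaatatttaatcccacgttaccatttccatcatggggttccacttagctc

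The 4 promoters were of unlike make. Sbsn and Duox1 held no GC box and 3 and 6 CpG pairs, whereas Dact2 held 3 GC boxes and 23 CpG pairs and Duoxa1 4 boxes (a pair of them overlapping) and 22 CpG pairs. A GC box stood in 35.7% of all 32851 promoters of that table, in 60.9% of the promoters of genes tested, in 57.9% of those of genes called higher in cluster 1 and in 53.8% of those called lower. Letters of the TATA box (TATAAA) stood in 13.6% of all promoters, 7.27% of those of genes tested, 10.96% of those called higher and 8.04% of those called lower. The letters TGACG, the core of the cAMP response element, stood in 20.8%, 29.9%, 24.6% and 17.3% of the same sets. These are counts of letters on both strands and say nothing of a factor at work.

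Sbsn, which encodes suprabasin, a secreted protein best known from the upper layers of the epidermis, had the smallest error of fold change among the markers. In the order Acta2GFP, C57BL6, pool and PdgfrbGFP, which holds for all lists of values below, it stood at 108.8, 71.1, 215 and 120.7 CPM in cluster 1 and at 6.53, 6.48, 8.09 and 4.87 CPM in the other fibroblasts. Every cluster 1 sum lay above every other sum, and the log2 fold change was 4.22 ± 0.36 (n = 4 strain labels), called higher. The error given with each fold change is its absolute value over the square root of the F statistic of its test. That statistic draws in part on the spread of all genes, so the error is not a plain standard error over the strain labels. The gene (ENSMUSG00000046056) lies at chr7:30751471-30756134.

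Smpd3 (ENSMUSG00000031906, chr8:106252548-106337988), the neutral sphingomyelinase that releases ceramide from membranes, was called higher by 3.65 ± 0.48. It stood at 12.3, 491, 422 and 179 CPM against 3.86, 30.6, 19.4 and 11.4 CPM. The 6 Acta2GFP cells were low, so the sets overlapped although each strain was higher in cluster 1. Dact2 (ENSMUSG00000048826, chr17:14195052-14204304), an intracellular antagonist of Wnt and TGF-β signalling, stood at 86.6, 1.67, 226 and 197 CPM against 1.31, 0.415, 7.44 and 2.80 CPM. It was called higher by 4.94 ± 0.82, and the C57BL6 cells were nearly without it.

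The other 3 markers were not called, with large errors. Adamts16 (ENSMUSG00000049538, chr13:70727802-70841811), a secreted metalloproteinase, had no count in Acta2GFP and 138.4, 127.4 and 145 CPM in the other 3 strains, against 5.30, 1.57, 0.641 and 0.555 CPM, with a log2 fold change of 6.32 ± 2.13. Itgb7 (ENSMUSG00000001281, chr15:102215995-102231944), an integrin chain known from lymphocytes, stood at 0, 18.1, 246 and 93.8 CPM against 0, 2.24, 1.45 and 0.294 CPM, with 6.49 ± 1.40. Duoxa1 (ENSMUSG00000027224, chr2:122302191-122313730), the maturation factor of the oxidase Duox1, stood at 411, 60.8, 141 and 102.96 CPM against 0.328, 5.10, 7.99 and 5.46 CPM, with 4.91 ± 1.11. Its sets did not overlap, but 17% of its exon bases are shared with Duoxa2 on the other strand, and whether reads were counted by strand is not stated, so its value is uncertain.

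**Figure D1:**
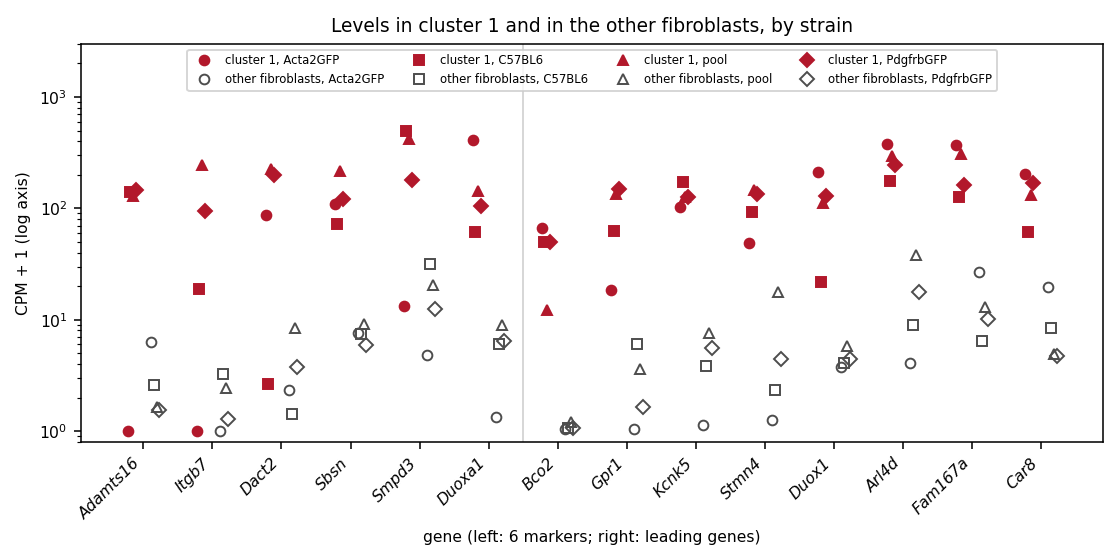
Level of the 6 markers (left) and of 8 leading genes (right) in CPM + 1 on a log axis, 1 symbol per strain label, filled red for cluster 1 and open for the other fibroblast clusters. Filled symbols lie above open ones of the same strain throughout, except for Adamts16 and Itgb7 in Acta2GFP, where cluster 1 had no count.

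Single cells carried the markers in part. At 100 counts per 500000 as detection, the share of cells with a marker, averaged over strains, was 13.8% ± 10.0 (SD, n = 4) for Adamts16, 10.5% ± 11.2 for Itgb7, 20.4% ± 16.1 for Dact2, 24.3% ± 6.4 for Sbsn, 31.7% ± 26.7 for Smpd3 and 26.9% ± 16.9 for Duoxa1. In the other fibroblasts the same shares ran from 0.0751% for Adamts16 to 2.53% for Smpd3. No marker passed this detection in most cluster 1 cells. At 20 counts per 500000 Smpd3 passed in 53.4% of the 161 cells, and the mean shares became 48.4% for Smpd3 and 21.3% for Adamts16. Counted over cells, 44 of 161 had none of the 6, 53 had 1, 35 had 2, 19 had 3, 6 had 4, 3 had 5 and 1 had all 6. Of the other fibroblasts 1338 had none and 67 (4.77%) had 1, and none had 2 or more.

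Among the genes with the largest log2 fold change, several encode enzymes and channels seldom listed for fibroblasts. Bco2, which cleaves carotenoids in mitochondria, stood at 65.1, 49.4, 11.2 and 49.2 CPM against at most 0.202 CPM, a log2 fold change of 8.91 ± 1.20. Slc6a4, the serotonin transporter, followed with 57.5, 11.9, 11.9 and 32.3 CPM against at most 1.44 CPM (8.67 ± 1.71), and Kcnk5, a potassium channel, with 101.9, 172, 125.2 and 124.2 CPM against 0.123, 2.81, 6.67 and 4.58 CPM (5.74 ± 0.91). None of these 3 overlapped between the sets, which their choice by large fold change and the same sign in every strain makes likely. The share of all genes tested that did not overlap is not given, here or for other genes named. Gpr1, a chemerin receptor, was higher by 6.20 ± 0.98, Stmn4, a tubulin-binding stathmin, by 5.46 ± 0.81, and Nr1h4, the bile acid receptor FXR, by 4.93 ± 0.83. Further members of this group were Arl4d, a small GTPase (377, 175, 294 and 242 CPM against 3.08, 8.04, 36.8 and 16.9 CPM, 4.45 ± 0.67), Cbln2, a secreted synapse organiser (4.45 ± 0.54), Fam167a (4.29 ± 0.25), Car8, a carbonic anhydrase relative (4.26 ± 0.54), Chst1, a keratan sulphate sulphotransferase (4.05 ± 0.83), and Sytl2, a membrane traffic protein (3.89 ± 0.50).

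Fam167a had the smallest error of them and stood at 370, 124.9, 304 and 161 CPM against 25.9, 5.48, 11.9 and 9.23 CPM. Cell shares were again low for the rarest of these genes. Bco2 passed detection in 13 of the 161 cells (8.07%).

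The genes lowest in cluster 1 lay near the floor there. Ltbp2, a latent TGF-β binding protein, had 6 counts in all cluster 1 sums, 0.254 CPM on average against 62.98 CPM (-8.14 ± 0.84). Galr2, a galanin receptor, had 5 counts and stood at 25.99 CPM in the others (-7.58 ± 1.05). Col11a2, a fibrillar collagen chain, was at 0.302 against 65.3 CPM (-7.53 ± 0.66), and D630003M21Rik at 0, 0.279, 1.10 and 0.681 CPM against 73.7, 54.5, 96.8 and 105.99 CPM (-7.24 ± 0.60). Kirrel3, Uts2r, Mettl24, Acsbg1, Rab15 and Prph had log2 fold changes between -7.35 and -7.07.

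Duox1 and Duoxa1 stand head to head on chromosome 2, with starts 1942 bases apart on opposite strands. Duox1 (ENSMUSG00000033268, chr2:122315672-122347972) makes hydrogen peroxide at the cell surface and needs Duoxa1 to leave the endoplasmic reticulum. Duox1 stood at 211, 20.8, 111.8 and 126.8 CPM against 2.79, 3.06, 4.87 and 3.46 CPM and was called higher by 4.70 ± 0.66. Of the 161 cells 30 passed detection for Duox1 and 35 for Duoxa1, and 12 for both, 34.3% of those with Duoxa1. Of 7 DUOX and NOX oxidase genes tested, Duox1 alone was called (14.3%). Nox4, a constitutive oxidase, differed by -0.47 ± 0.22 and Cyba, the p22phox subunit, by 0.17 ± 0.16. Among 16 antioxidant enzymes 1 was called (6.25%, near the 4.48% of all genes), Gpx1 (0.64 higher), glutathione peroxidase.

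Sbsn forms a run of genes on chromosome 7 with Dmkn (30763756 to 30781063) and Krtdap (30787896 to 30791097), both secreted by keratinocytes. Krtdap had 0, 33.1, 61.98 and 28.1 CPM in cluster 1 and at most 2.01 CPM in the others (6.28 ± 2.42, not called, higher in 3 of 4 strains). Krt10 and Perp, epidermal genes elsewhere in the genome, differed by 0.30 and -0.19 and were not called. Bco2 and Il18, which encodes a cytokine of the IL-1 family, are likewise neighbours, with starts 354 bases apart on opposite strands of chromosome 9 and gene bodies that overlap at their 5′ ends. Il18 stood at 27.6, 87.9, 78.3 and 61.6 CPM against 7.23, 6.58, 7.13 and 2.12 CPM and was called higher by 3.52 ± 0.62. Of 13 cells with Bco2 and 23 with Il18, 4 had both. The share of reads at their overlap was not tested.

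Most of the list of Dpp4 and Pi16 fibroblast genes lay higher in cluster 1. Of its 31 genes 27 were called higher and none lower (0 also at an unadjusted p under 0.05 and by DESeq2), with a median log2 fold change of 2.64, and all 31 lay above the median of all genes. The share called higher over all genes tested was 1.52%. Sbsn, Smpd3 and Dact2 are both on this list and among the markers. Without them 24 of 28 were called higher, with a median of 2.43. Leaving out a strain left 24 (without Acta2GFP), 17 (without C57BL6), 14 (without the pool) and 16 (without PdgfrbGFP) of the 31 called higher, and with equal numbers of cells it was 11. The list was drawn up with results of these data known, so its count describes the cluster.

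Dpp4 (chr2:62330073-62412231) itself stood at 176, 732, 552 and 732 CPM in cluster 1 against 56.1, 132.4, 64.2 and 93.7 CPM, a log2 fold change of 2.56 ± 0.27. Pi16 (chr17:29317680-29330593) was among the most abundant, at 3518, 1667, 2746 and 4496 CPM against 997, 144, 525 and 629 CPM (2.64 ± 0.28). Both were higher in each strain, and their sets did not overlap. Dpp4 passed detection in 74.5% of the 161 cells and Pi16 in 97.5%, and 97.5% of the cells with Dpp4 also had Pi16. Efhd1 (chr1:87264363-87310839), which encodes a mitochondrial calcium-binding protein, stood at 1066, 898, 903 and 1194 CPM against 80.5, 47.6, 64.05 and 92.9 CPM (3.87 ± 0.16). It passed detection in 89.7% ± 4.4 of cluster 1 cells (SD, n = 4) and in 13.6% of the others.

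Several surface proteins of the list were called higher. Cd55, which restrains complement on the cell surface, stood at 1446, 498, 675 and 786 CPM against 167, 75.3, 103.3 and 107.9 CPM (2.85 ± 0.14). Procr, the protein C receptor, stood at 890, 865, 865 and 613 CPM against 19.8, 91.98, 160 and 70.03 CPM (3.51 ± 0.51) and passed detection in 79.96% of cluster 1 cells and 15.1% of the others. Neither gene overlapped between the sets. Cd248, endosialin, was higher by 1.94 ± 0.12, at 3169 CPM against 830 CPM, Ly6a by 1.20 ± 0.17 and Cd34 by 0.96 ± 0.11.

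Sema3c, a secreted guidance cue, stood at 936 ± 223 CPM (SD, n = 4) against 148 ± 30.3 CPM (2.66 ± 0.24). Il33, an alarmin cytokine held in the nucleus, was higher by 1.19 and Fn1, fibronectin, by 1.30. Pcolce2, an enhancer of procollagen processing, was higher by 2.06. Wnt2, a Wnt ligand, was called higher (3.84 ± 0.74) on very unequal levels of 175, 0.418, 63.2 and 49.6 CPM against 4.06, 0.00846, 6.70 and 10.8 CPM, with C57BL6 almost without it in either set. Uchl1, a ubiquitin hydrolase known from neurons, stood at 172 against 18.9 CPM (3.27 ± 0.36). The 4 list genes not called were Bmp7 (1.67 ± 0.65), Limch1 (1.55 ± 0.33), Tppp3 (0.55 ± 0.19) and Timp2 (0.63 ± 0.17).

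**Figure D2:**
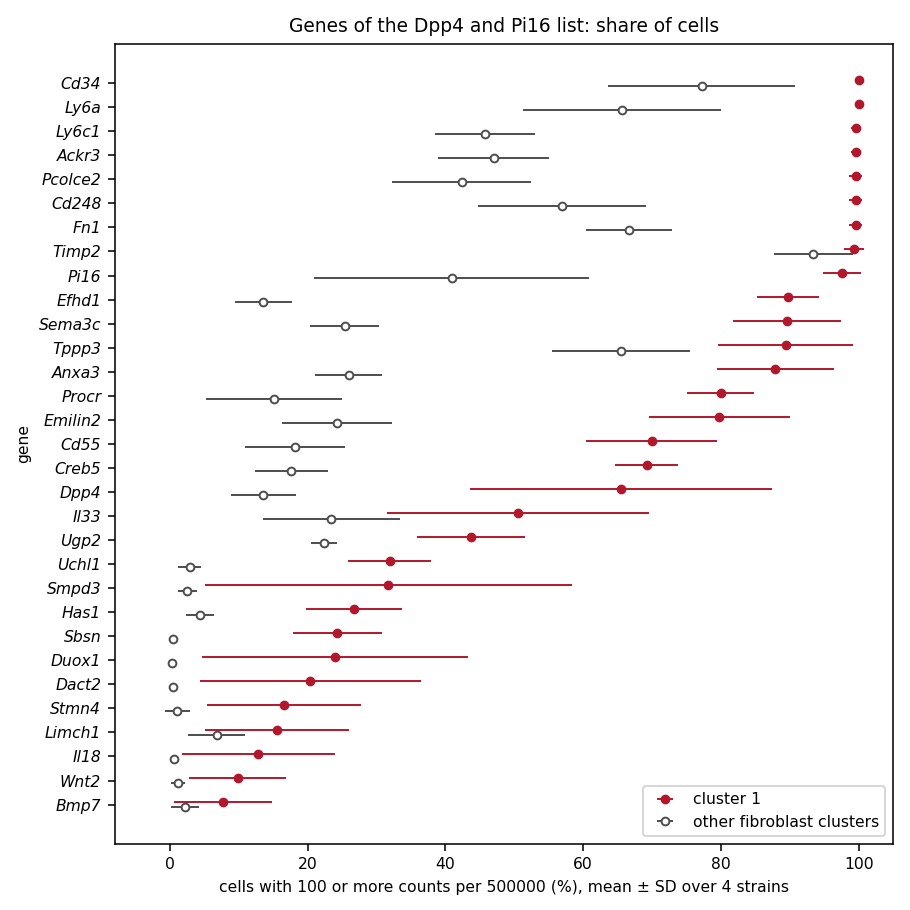
Share of cells (percent) with at least 100 counts per 500000 of each of the 31 genes of the Dpp4 and Pi16 list, mean ± SD over 4 strain labels, in cluster 1 and in the other fibroblasts. Efhd1 was found in 89.7% of cluster 1 cells and 13.6% of the others, while Ly6a and Cd34 were found in all cluster 1 cells.

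Counted cell by cell, cluster 1 cells passed detection for a median of 20 of the 31 genes (range 12 to 28), against a median of 8 (range 0 to 21) in the other fibroblasts. The medians of the 4 strains were 19.5, 19, 20 and 20. Among the other clusters the medians fell in the order cluster 5 (12), 3 (11), 8 (10), 4 (8), 6 (7), 10 (6), and 2 and 9 (4 each). The ranges overlapped: 289 other fibroblasts (20.6%) had at least 12 of the genes and 4 (0.285%) reached 20, and 46 cluster 1 cells (28.6%) had more than any other fibroblast.

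**Figure D3:**
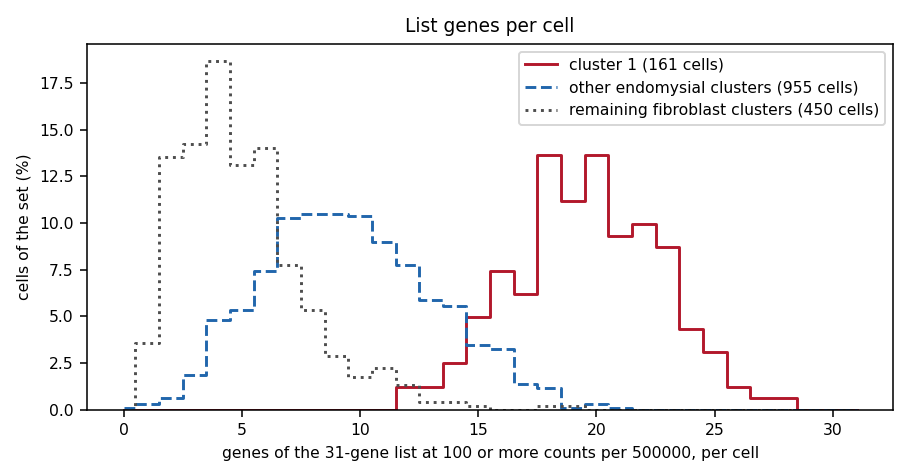
Number of genes of the Dpp4 and Pi16 list found per cell (x axis, of 31) against the share of cells, for 161 cluster 1 cells, 955 other endomysial fibroblasts and 450 remaining fibroblasts. Cluster 1 cells had 12 to 28 of the genes and the other fibroblasts, both sets together, 0 to 21.

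The opposite list, of genes typical of the Col15a1 class and of fibro-adipogenic cells within the tissue, lay lower. Of 20 genes 12 were called lower and none higher (0 also at an unadjusted p under 0.05 and by DESeq2), with a median of -2.44. The share called lower over all genes tested was 2.96%. Leaving out a strain left 11 (without Acta2GFP), 8 (without C57BL6), 5 (without the pool) and 5 (without PdgfrbGFP) called lower, and with equal numbers of cells it was 4. Col15a1, a collagen of the basement membrane zone, stood at 0.766, 9.27, 13.4 and 3.74 CPM against 107.3, 118.7, 289 and 175 CPM (-4.83 ± 0.52), and 0.621% of cluster 1 cells passed detection for it. Cxcl14, a chemokine, stood at 38.1 ± 25.4 against 861 ± 208 CPM (-4.68 ± 0.43) and Smoc2, a matricellular calcium-binding protein, at 433 ± 186 against 2491 ± 766 CPM (-2.59 ± 0.31). Also lower were Gdf10, a ligand of the TGF-β family (-3.59), Apod, a lipid carrier (-2.18), Hsd11b1, which regenerates active glucocorticoid (-1.99), Cxcl12, which retains haematopoietic cells (-1.83), and Lpl, lipoprotein lipase (-0.80). Ccl11, eotaxin, had a value of 0.26 ± 0.17 and was not called.

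Of 8 perimysial markers all 8 were called lower, with a median of -5.30, and 4 with equal numbers of cells. They include the tendon genes Tnmd (14.5 against 609 CPM, -5.51) and Scx (1.05 against 66.5 CPM, -6.53). Of 5 paramysial markers 3 were called lower (Tnc, C1qtnf3 and Col8a1), against 2.96% of all genes tested. Against the other endomysial clusters alone edgeR called none of the 8 and none of the 5, with medians of -0.98 and -0.97 (4 and 2 lower at an unadjusted p under 0.05, 3 and 2 by DESeq2).

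Matrix genes split in both directions. In the elastic fibre list 5 of 19 genes were higher and 7 lower (63.2% called, against 4.48% of all genes). Efemp1, fibulin-3, stood at 2948, 1742, 1791 and 1773 CPM against 146, 165, 261 and 225 CPM (3.37 ± 0.27), Emilin2 at 935 ± 173 against 149 ± 30.7 CPM (2.66 ± 0.14) and Fbn1, fibrillin-1, at 3645 ± 1030 against 1144 ± 244 CPM (1.65 ± 0.13). Mfap5 and Loxl1, which bind and cross-link microfibrils and elastin, were higher by 1.11 and 0.87. In the opposite direction Fbln7 lay at 3.71 against 373 CPM (-6.70 ± 0.25) and Mfap4 at 49.2 ± 15.8 against 962 ± 266 CPM (-4.30 ± 0.30). Against the other endomysial clusters the same 5 were higher and Fbln7, Mfap4 and Fbln1 lower, of 18 tested (44.4%, against 2.47% of all genes).

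Of 22 basement membrane genes tested 7 were called lower, among them Col4a1 (-1.21), Col4a2 (-1.87) and Nid2 (-1.24), and 2 higher, among them Nid1 (0.90). Of 16 fibrillar and FACIT collagens Col14a1, which binds to the surface of collagen fibrils, was higher (832 against 215 CPM, 1.92 ± 0.37) and 7 were lower, among them Col1a1 (-0.94) and Col1a2 (-0.64). Called were 40.9% of the basement membrane genes and 50% of these collagens, against 4.48% of all genes. Against the other endomysial clusters edgeR called none of 14 collagens (1 higher and 4 lower at an unadjusted p under 0.05, 1 higher and 0 lower by DESeq2).

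Of 26 proteoglycan and hyaluronan genes, 3 were called higher (Has1, Ugdh and the hyaluronan-binding Vcan) and 8 lower, with a median of -0.65. In all 42.3% of them were called, against 4.48% of all genes. Among the lower ones were Cd44, the hyaluronan receptor, and Bgn, biglycan (952 against 3452 CPM, -2.18). Ugp2 of the Dpp4 and Pi16 list, which makes UDP-glucose, was higher by 1.13 (284 against 130 CPM). Ugdh, which turns it into UDP-glucuronic acid, was higher by 2.61 ± 0.19, at 1070 ± 270 against 171 ± 15.7 CPM. Has1, a hyaluronan synthase, stood at 113.4, 295, 190 and 291 CPM against 47.5, 16.5, 19.1 and 38.9 CPM (2.94 ± 0.49). All 3 were also called higher against the other endomysial clusters.

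Although Adamts16 was not called, 3 of 20 ADAMTS genes were higher. These were Adamtsl4, a microfibril-associated protein (514, 358, 457 and 504 CPM against 45.04, 78.8, 111.7 and 93.3 CPM, 2.53 ± 0.27), Adamts5, an aggrecanase and versicanase (982 ± 170 against 285 ± 48.8 CPM, 1.78 ± 0.13), and Adamtsl5 (1.62 ± 0.25). Adamtsl2, which binds fibrillin and latent TGF-β, was lower with 0.972 against 81.2 CPM (-6.20 ± 0.73), as were Adamts4, Adamts9 and Adamts17. In both directions 35% of the ADAMTS genes were called, against 4.48% of all genes. Of 11 metalloproteinases and inhibitors 1 was called (9.09%), Mmp23, higher by 1.17. Of 18 integrin chains edgeR called none higher (2 at an unadjusted p under 0.05, 2 by DESeq2), and Itga1, which pairs to bind collagen and laminin, and Itga8 were lower (-4.93 and -5.43). Called were thus 11.1% of the integrin chains. Of 24 sphingolipid enzymes 2 were called (8.33%, against 4.48% of all genes), the marker Smpd3 higher and Sphk1, a sphingosine kinase, lower (-5.79). Against the other endomysial clusters the same 3 ADAMTS genes were higher and Adamtsl2 alone lower, of 18 tested (22.2%, against 2.47% of all genes). There edgeR called none of 16 integrin chains (1 higher and 5 lower at an unadjusted p under 0.05, 1 and 4 by DESeq2). Of 23 sphingolipid enzymes it called Smpd3 alone (4.35%).

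Signalling genes were called in both directions. The shares called were 16% of Wnt, 27.3% of BMP and TGF-β, 30.6% of growth factor and 22.2% of guidance genes, against 4.48% of all genes. Of 25 Wnt genes Dact2 and Wnt2 were higher, and the secreted modulators Wif1 and Dkk3 lower (-6.01 and -5.30). Against the other endomysial clusters Dkk3 alone was called. In the BMP and TGF-β family 3 of 33 were higher (Bmp1 1.03, Fstl1 0.86, Tgfbr2 0.75) and 6 lower. Bmpr1b was among the latter, with 2 counts in all cluster 1 sums. Among 36 growth factor genes Fgf2 (165, 139.2, 90.3 and 64.2 CPM against 8.01, 27.5, 18.3 and 25.1 CPM, 2.55 ± 0.53), Vegfd (2.78), Fgf10 (1.78), Tek (1.66) and Igfbp5 (1.22) were higher and 6 lower. Pdgfrb, the gene of the reporter in a pair of these strains, was lower at 216 ± 65.6 against 407 ± 174 CPM (-0.89 ± 0.18), and Pdgfra had 499 ± 120 against 570 ± 161 CPM and was not called (-0.18 ± 0.14). Of 27 guidance genes Sema3c was higher and 5 were lower, among them Epha4 (-6.37) and Sema5a (-4.72). Against the other endomysial clusters 4 genes of the BMP and TGF-β family were higher, and Gdf10 and Ltbp4 alone were lower. Neither Ltbp2 nor Bmpr1b was called there. Igfbp5 and Fgf1 were the growth factor genes called higher, and Pdgfrb and Pdgfra were among 5 called lower. Among guidance genes Sema3c and Sema3b were higher, and Epha4, Sema5a and Nrp1 lower. In the order Wnt, BMP and TGF-β, growth factor and guidance genes, 4.55, 18.2, 19.4 and 20% were called there, against 2.47% of all genes.

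Of 27 chemokine and cytokine genes 4 were higher and 4 lower (29.6% called, against 4.48% of all genes). The higher ones were Il18, Il33 and the scavenging receptors Ackr1 (2.31) and Ackr3 (1.95), and the lower ones Cx3cl1, Cxcl14, Cxcl16 and Cxcl12, all of them ligands. In the complement list C3, the central component, stood at 1779, 2756, 2183 and 3308 CPM against 262, 1008, 691 and 1025 CPM (1.88 ± 0.22), and Cd55 was also higher. Aldh1a3, which makes retinoic acid, stood at 131.8, 92.5, 206 and 414 CPM against 22.005, 12.1, 14.6 and 22.5 CPM (3.39 ± 0.35). Of 22 retinoid, steroid and xenobiotic enzymes it and Gstm1 were higher and 5 lower (31.8% called), Cyp2f2 the most (-6.80 ± 0.90).

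Of 63 transcription factors 5 were higher and 8 lower (20.6% called, against 4.48% of all genes). Creb5, a CREB family factor, stood at 319, 566, 479 and 479 CPM against 81.4, 68.6, 108.9 and 114.2 CPM (2.30 ± 0.22). Klf2 and Klf4, related zinc finger factors that in endothelium answer to flow, were higher by 1.80 ± 0.15 and 1.48 ± 0.19, Ebf2 by 1.41 and Osr2 by 1.24. Their relative Klf5 lay at 0.333 against 36.3 CPM (-6.80 ± 0.82). The homeobox gene Meox1 stood at 6.90, 1.88, 5.94 and 1.53 CPM against 189, 301, 133.5 and 209 CPM (-5.96 ± 0.66), and Meox2 was lower as well (-1.29). Of 19 immediate early genes, which respond to the stress of dissociation, edgeR called none (1 higher and 7 lower at an unadjusted p under 0.05, 1 and 3 by DESeq2). Of 9 proliferation genes it called none either (0 higher and 2 lower at an unadjusted p under 0.05, and the same counts by DESeq2).

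**Figure D4:**
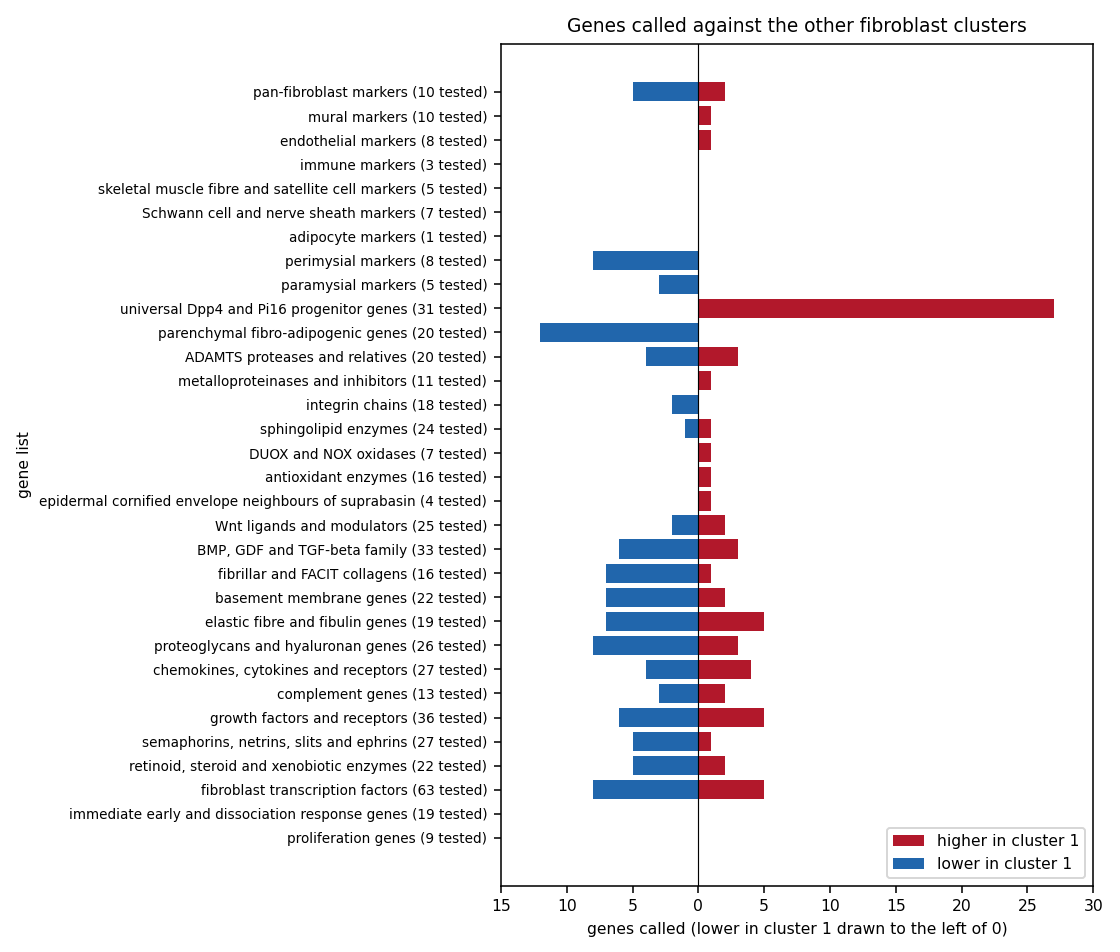
Number of genes of each list called higher (right) or lower (left) in cluster 1 against the other fibroblast clusters. The Dpp4 and Pi16 list has 27 genes to the right and none to the left, and the perimysial list 8 to the left.

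Markers of other cell types were few, which the submitters' filter had in part set beforehand. They had removed cells with clear endothelial or immune signatures, cells without Pdgfra or Pdgfrb and likely doublets. Of 8 endothelial markers Tek, the angiopoietin receptor, was higher (305, 393, 274 and 390 CPM against 154, 69.6, 95.3 and 124.4 CPM), while the other 7 summed to between 1.61 and 25.2 CPM in cluster 1 and 15.2 to 31.1 CPM in the others. Pecam1 was at 3.38, Cdh5 at 1.34 and Kdr at 0.893 CPM on average. Of 10 mural markers Des, desmin, was higher (159 ± 20.4 against 56.1 ± 17.3 CPM, 1.55 ± 0.25), and the other 9 summed to between 6.16 and 434 CPM against 200 to 790 CPM. Acta2 gave most of the upper value, with 338 CPM in Acta2GFP and 1.46, 8.19 and 35.5 CPM in the other strains. Immune markers summed to 13.1 to 19.9 CPM against 9.10 to 37.4 CPM, with Ptprc, Tyrobp and Fcer1g at 0. Muscle markers summed to 57.7 to 315 CPM against 113.97 to 172 CPM, with Pax7, Myod1 and Myf5 at 0. Schwann markers summed to 9.73 to 214 CPM against 81.6 to 145 CPM, and adipocyte markers to 1.30 to 46.3 CPM against 2.08 to 16.7 CPM, with Adipoq, Plin1, Lep and Cidec at 0. edgeR called none of the 3 immune, 5 muscle, 7 Schwann and 1 adipocyte markers that could be tested (2 Schwann markers were lower at an unadjusted p under 0.05, 1 by DESeq2). Of 10 pan-fibroblast markers Ly6a and Cd34 were higher and 5 lower (Fbln1, Lum, Col1a1, Col1a2 and Serpinf1).

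The comparison with the other endomysial clusters left out the 450 perimysial, paramysial and cluster 10 cells. Of 14432 genes tested 357 (2.47%) were called, 169 higher (1.17%) and 188 lower (1.3%), with a median over all genes of -0.21. Counts were 299 without Acta2GFP, 97 without C57BL6, 75 without the pool and 56 without PdgfrbGFP. The Dpp4 and Pi16 list again had 27 of 31 genes higher, with a median of 2.36, and leaving out a strain left 23, 15, 12 and 10 in the same order. Limch1 (3.91) and Timp2 (0.63) were now called, and Dact2 and Wnt2 were not, nor were Bmp7 and Tppp3. Of the markers Sbsn (4.56 ± 0.33) and Smpd3 (3.08 ± 0.53) were called. Of the 20 genes of the opposite list 12 were lower (median -2.39), and 13, 7, 5 and 6 were so when a strain was left out.

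Genes that led within the endomysium were partly others. Bmp3, an antagonist among the BMPs, stood at 98.4 against 6.25 CPM (4.96 ± 0.83) and Ecscr, a small surface protein known from endothelium, at 62.9 against 2.20 CPM (4.83). Fam167a was higher by 6.57 ± 0.50, Duox1 by 5.35 ± 0.94 and Car8 by 4.82 ± 0.49. Kcnk5, Gpr1 and Slc6a4 had values of 5.499, 5.77 and 8.58 but were not called here. Lowest were Acsbg1 (-7.79 ± 1.03), a fatty acyl-CoA synthetase, Hhip (-7.61), the Hedgehog antagonist, and D630003M21Rik (-7.51 ± 0.59). Cyp2f2 stood at 0.650 against 77.5 CPM and Klf5 at 0.333 against 51.5 CPM.

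Cluster 1 was then set against each of clusters 3, 6 and 8, in 1 fit that shares the cluster 1 sums among the comparisons. Of 16520 genes 238 (1.44%) were called against cluster 3, 87 higher (0.527%) and 151 lower (0.914%). Against cluster 6 it was 380 (2.3%), 154 higher (0.932%) and 226 lower (1.37%), from 3 strains, since Acta2GFP had too few cluster 6 cells. Cluster 5 (31 cells), the remaining endomysial cluster, was in the fit but was not compared alone. Against cluster 8 it was 343 (2.08%), with 0.817% higher and 208 lower (1.26%). Leaving out Acta2GFP, C57BL6, the pool or PdgfrbGFP left 0.836, 0.674, 0.482 and 0.418% of genes called against cluster 3, 1.93, 0.978, 0.880 and 0.757% against cluster 6 and 1.44, 1.72, 0.874 and 0.554% against cluster 8.

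The Dpp4 and Pi16 list had 15, 21 and 17 of 31 genes called higher against clusters 3, 6 and 8, with medians of 2.06, 3.58 and 2.36. Sbsn was called in all 3 (5.05, 3.90 and 3.90), and Smpd3 in none of them. Against cluster 3 the leading genes included Nr1h4 (8.13 ± 1.28), Bmp3 (94.2 against 0.350 CPM, 8.08 ± 1.37) and Duox1 (7.61 ± 1.55), and Adamtsl2 (-6.91 ± 0.85) and Cyp4b1 (-7.59) were lower. Against cluster 6 they included Adamts16 (132.97 against 0.102 CPM, 9.71 ± 2.32) and Dmkn, dermokine, the neighbour of Sbsn. Dmkn stood at 74.3, 118.5 and 29.7 CPM in C57BL6, the pool and PdgfrbGFP against at most 0.181 CPM (9.39 ± 1.53). It was also called higher against clusters 3 and 8, and Krtdap against cluster 8. Cluster 6 was set apart by Cyp2f2 (0.866 against 315 CPM, -8.90 ± 1.13) and Klf5 (0.435 against 181 CPM, -8.69 ± 1.41). Against cluster 8 Dact2 (10.22 ± 1.48) and Fam167a (229 against 0.428 CPM, 9.55 ± 1.84) led, and Acsbg1 (0.0802 against 129.8 CPM, -9.77 ± 1.01) was low.

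Levels by cluster showed where genes of cluster 1 recurred. Efhd1 had 966 ± 146 CPM in cluster 1 and next 171 CPM in cluster 10, and Bco2 had 40.7 CPM and at most 0.252 CPM in any other fibroblast cluster. Pi16 had 2951 CPM and next 916 CPM in cluster 4 and 850 CPM in cluster 3. Dpp4 was less set apart, with 537 ± 271 CPM, 359 CPM in cluster 5 and 267 CPM in cluster 2. Wnt2 was at 65.1 ± 60.8 CPM in cluster 1 and 59.7 ± 52.8 CPM in cluster 5, which do not differ beyond their spread. Cluster 5 also came next for Itgb7 (17.1 CPM), Duoxa1 (20.96 CPM) and Adamtsl4 (284 ± 186 against 435 CPM), and 16.1% of its 31 cells passed detection for 1 marker, the highest share outside cluster 1. Limch1 was highest outside the endomysium, at 147 CPM in cluster 2 and 128.8 CPM in cluster 9 against 99.3 ± 12.1 CPM in cluster 1.

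**Figure D5:**
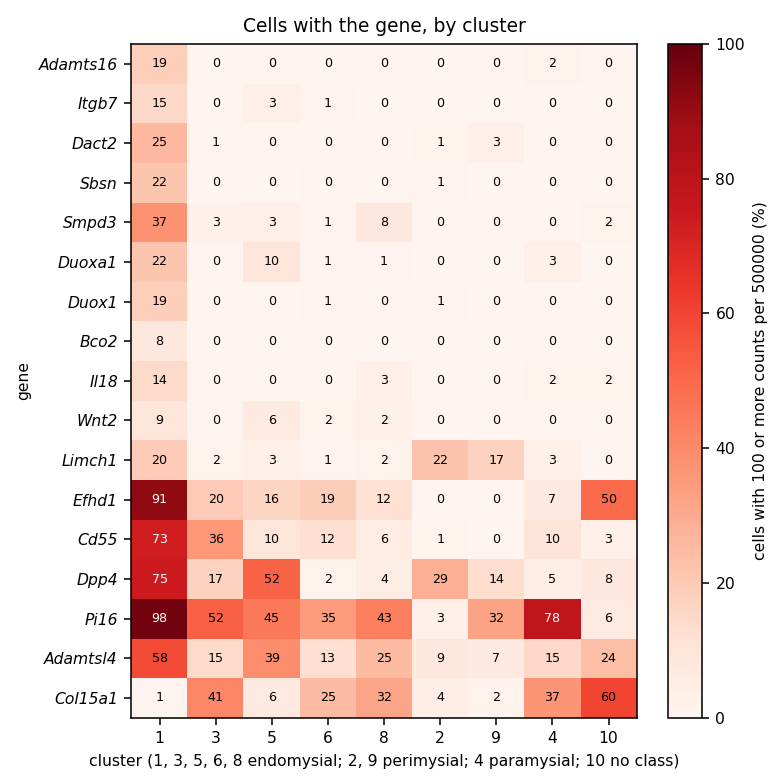
Share of cells (percent, colour) with at least 100 counts per 500000 of 17 genes in each of the 9 fibroblast clusters. Efhd1 was found in 91.3% and Pi16 in 97.5% of cluster 1 cells, Pi16 also in 78.3% of cluster 4 and Dpp4 in 51.6% of cluster 5, while Col15a1 was found in 0.621% of cluster 1.

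Over all genes tested, as 1 minus the correlation of log2(CPM + 1) within a strain, cluster 1 lay nearest to cluster 3 (0.163 ± 0.074, SD over 4 strains), then cluster 6 (0.184 ± 0.046, 3 strains) and cluster 8 (0.196 ± 0.076), which did not differ beyond their spread. Clusters 5 (0.264, 3 strains), 2 (0.273), 4 (0.295), 10 (0.295, 2 strains) and 9 (0.323) followed. Clusters 5, 4, 10 and 9 held 31, 60, 62 and 59 cells, against 440, 231 and 253 in clusters 3, 6 and 8. The part of the number of cells in these distances was not tested. With the 2000 most variable genes cluster 5 (0.559) came before cluster 6 (0.562). Genes share a library in each of these values, so they are a description.

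Cluster 1 made up 10.3% of all fibroblasts (161 of 1566, exact 95% interval 8.82 to 11.9%) and 14.4% of endomysial ones. By strain it was 5.94% of fibroblasts in Acta2GFP (2.21 to 12.5%), 8.52% of 364 in C57BL6 (5.86 to 11.9%), 13.2% of 401 in the pool (10.1 to 16.9%) and 11.8% of 593 in PdgfrbGFP (9.32 to 14.7%). In Cspg4dsRED it was a single cell, 0.935% (0.0237 to 5.10%). The gates differed between strains and can set these shares, and the intervals cover counting error only. In the pool 21 of 176 soleus fibroblasts (11.9%) and 32 of 225 gastrocnemius fibroblasts (14.2%) were in cluster 1, with intervals that overlap. In PdgfrbGFP 12.2% of gastrocnemius fibroblasts were in it (16 cells) and 0 soleus fibroblasts, which allows a share of up to 2.75% by a limit of 3 cells and up to 3.33% by the exact 95% interval.

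Within the pool, soleus and gastrocnemius cells of cluster 1 had 943 and 893 CPM of Efhd1, 502 and 611 CPM of Dpp4, 2590 and 2953 CPM of Pi16 and 414 and 440 CPM of Smpd3. Values lay further apart for Adamts16 (78.4 in soleus and 173 CPM in gastrocnemius), Itgb7 (371 and 144 CPM) and Has1 (307 and 93.3 CPM). With 1 plate for each muscle there is no replicate and no test, and the muscle and the plate cannot be told apart.

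RNA content and the number of genes found were also compared per cell. Gene counts over counts of added spike-in RNA, a measure of RNA content, had a median that was higher in cluster 1 by 0.22, 0.37, 0.04 and 0.03 on the log2 scale in the 4 strains, a mean of 0.166 ± 0.162 (SD). After thinning each cell to 40000 reads, cluster 1 cells had medians of 3906, 2916, 3503 and 3277 genes against 3758, 2477, 3347 and 3074, a mean difference of 236 ± 137.3 genes. Both were higher in 4 of 4 strains, with an exact two-sided sign-flip permutation p of 0.125 each, which is the smallest that 4 strains allow. No difference could therefore pass 0.05. By plate, RNA content was higher in 4 of 6, by 0.119 ± 0.192 (exact p = 0.1875).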

How the data were processed

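Each single cell was a library of its own. Per the study's methods and the submitters' processing notes, cells were sorted into 384-well plates and sequenced with Smart-seq2. By the same sources reads were aligned to mouse GRCm38 (mm10) with TopHat2 on Bowtie or Bowtie2. Which cells had which aligner is not given. Exonic reads were counted per gene with featureCounts (Subread). Cells with few counts or genes, and those with so many genes as to be likely doublets, had been dropped. So had cells without Pdgfra or Pdgfrb and those with a clear endothelial or immune signature. Clusters had been made with pagoda2. The deposited values are these raw read counts per gene, not normalized by the authors, without molecular identifiers. No doublet caller was run here. Whether reads were counted by strand is not given in the sources used here.

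The table held 1754 columns of cells, of which 1 matched no sample label and was not used, with 46517 genes and 92 spike-ins (1.31% of counts), which stayed out of library sizes. Symbols were matched to GENCODE M21 (GRCm38) for 46005 genes, and 512 had no match. Counts were summed over the cells of a cluster within a strain label with 3 or more cells. The sums entered edgeR 4.0.16 (R 4.3.3; TMM, filterByExpr, strain label as block, glmQLFit and glmQLFTest), with Benjamini-Hochberg adjustment and a threshold of 0.05. The sums of a strain label share a mouse line and a gate, although the labels name no animal and the cluster sums need not come from the same plates (C57BL6 cluster 1 cells lay on 1 plate, its other fibroblasts on 2). In the comparison with the other fibroblasts the deviations of paired sums correlated by 0.137 to 0.207. Simulated counts of 14937 genes were fitted as in the comparison with the other fibroblasts. The fit recovered 4.0% of genes changed by 1, 65.3% of those changed by 2 and all of those changed by 3 on the log2 scale. These counts had 1 spread for all genes and no strain effect, and no gene near the floor was changed. In the data Adamts16 and Itgb7 had larger fold changes and were not called, so the recovery does not carry over to such genes. CPM are counts per 1000000 of the summed library after TMM scaling, without it for sums over marker lists. Detection in a cell was 100 counts per 500000, and 20 as an alternative. Shares have exact (Clopper-Pearson) 95% intervals. These intervals came from scipy 1.17.1, and the permutation tests went through every pattern of signs with numpy 2.4.6. Alternatives were DESeq2 1.42.0, RLE size factors, no filter, no block, plates as units, cells weighted alike, equal numbers of cells and leaving out each strain.

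The members, markers and gene lists were chosen with earlier results of these data known. Genes named are the 6 markers, the called protein-coding genes of the largest and smallest log2 fold change with at least 20 CPM in the higher set and the same sign in every strain, up to 4 members of each list by absolute log2 fold change, and further list members to complete a family, with their values. Genes named for their place beside another and those with values by cluster were chosen after their values were seen. The label of the extraction protocol speaks of heart, while the tissue label is skeletal muscle. The authors' own comparison columns were not used.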

Additional observations from a re-analysis of the deposited data

Results flagged for a closer look

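For the genes named against the other fibroblasts the difference between cluster 1 and the others was taken on the log2(CPM + 1) scale in each of the 4 strain labels, and 7 genes had 1 strain far from the other 3 by Dixon's ratio of gap to range at its 95% critical value. Chance flags about 1 in 20 groups, here 5.45 genes, so the number is near what chance gives.

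Acta2GFP, with 6 cluster 1 cells, stood apart for 5 of the 7. Adamts16 differed by -2.65 there and by 5.76 to 6.55 in the other strains, and Cd59a, which guards against the complement pore, by -5.38 against -3.24 to -3.14. Duoxa1 differed by 8.28 against 3.34 to 4.01, Slc6a4 by 5.81 against 3.65 to 3.77 and Heyl, a Notch target, by -3.60 against -5.02 to -4.87. The pool stood apart for Bco2 (3.35 against 5.57 to 5.99) and Stmn4 (3.05 against 4.93 to 5.30). The part of the small number of cells in these values was not tested.

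The single cluster 1 cell of Cspg4dsRED, which entered no fit, passed detection for 20 of the 31 genes of the Dpp4 and Pi16 list. The other fibroblasts of that strain had a median of 4.5 and at most 11. Of the 6 markers the cell had Dact2 alone.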

How the results depend on the processing

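The share of tested genes called was computed under each alternative. Against the other fibroblasts 4.48% became 12.8% with DESeq2 (1920 genes), 8.94% with plates as units, 5.77% without the replicate block (869 genes), 1.73% with no filter, 0.765% with equal numbers of cells and 0.993 to 2.07% when a strain was left out. Against the other endomysial clusters 2.47% became 9.71, 6.57, 3.15 (454 genes), 1.06, 0.868 and 0.394 to 1.84% in the same order. Against cluster 3, DESeq2 gave 5.22% (863 genes), the fit without the replicate block 0.835% and leaving out a strain 0.418 to 0.836%. Against cluster 6 these were 7.20% (1189), 2.19% and 0.757 to 1.93%, and against cluster 8 they were 7.31% (1208), 1.45% and 0.554 to 1.72%. Fewer strains or cells leave fewer data to each fit. The cause of the other shifts was not tested. Of 2575 values of single named genes under an alternative, 1927 kept direction and side of the threshold, 529 were no longer called, 3 reversed and the rest were newly called. The 3 were all in genes not called against the other endomysial clusters. Scx (-0.13) ranged from -0.72 to 0.64 when a strain was left out, and Col22a1 (0.40) from -0.10 to 0.70, with -0.0543 for plates as units. With the 2000 most variable genes, distances from cluster 1 were 0.422 (cluster 3), 0.499 (8), 0.559 (5), 0.562 (6), 0.676 (4), 0.755 (10), 0.925 (2) and 1.005 (9). Cluster 1 was 14.4% of endomysial cells. Without thinning, cluster 1 cells had 224 ± 255 more genes, in 3 of 4 strains. The 6 cells of Acta2GFP limit what can be seen in that strain.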
